A study of Mus musculus with 6 samples.

Results

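The major urinary proteins are small secreted lipocalins that the liver makes and the kidney passes into the urine, where they bind pheromones. They are encoded by a cluster of near-identical genes. In the mouse liver their transcription depends on growth hormone, which acts through its receptor, the kinase JAK2 and the transcription factor STAT5, and most members are expressed more in males than in females. Mup20 encodes darcin, a pheromone in its own right.

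The 7 genes Mup1, Mup3, Mup7, Mup9, Mup11, Mup17 and Mup20 were followed here, which is 7 of the 15 Mup genes with a column and 7 of the 16623 genes measured. The members were chosen by a list drawn up with earlier results of these data known, and which of those values they were selected on is not recorded. The genotype and zone values of these genes are therefore descriptions, and the p-values of the fit over all genes are not independent support for them. The cells came from the livers of 3 wild-type (WT) mice and 3 SIRT7 knockout mice (SIRT7-/-, SIRT7 KO below), all 5 to 6 months old, and SIRT7 is a nuclear deacylase of the sirtuin family. The livers were dissociated by two-step collagenase perfusion, and hepatocytes and non-parenchymal cells (NPCs) were mixed in equal numbers before droplet-based single-cell RNA sequencing from the 3′ end of transcripts. The labels do not give the sex of the mice, nor whether the knockout was whole-body or whether the mice were littermates, so p-values measure the spread between these 6 animals. The numbers of the mice are used only as names, because the labels do not say whether same-numbered mice share anything. Hepatocyte shares below are not frequencies in the liver, because the mix was set by hand.

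The table held 11610 cells, with 552 to 5609 cells and 2511947 to 11069411 unique molecular identifiers (UMIs, each a counted molecule) a mouse, and 13 cell barcodes occurred in more than one mouse. Hepatocyte-like cells, which were grouped without use of any Mup gene, numbered 801, 511 and 100 in WT mice 1 to 3 and 931, 285 and 335 in SIRT7 KO mice 1 to 3. Their median depth was 1210 to 1729 UMIs in 5 mice and 3291 UMIs in SIRT7 KO mouse 3. The 10 hepatocyte markers summed to 476 to 858 CP10K (UMIs per 10000 UMIs of a cell, averaged over cells) in the WT mice and 427 to 621 CP10K in the SIRT7 KO mice. Sirt7, the targeted gene, stood at 0.822, 0.375 and 0.923 CP10K in the hepatocyte-like cells of the WT mice and 0.155, 0.0672 and 0.15 CP10K in those of the SIRT7 KO mice. Xist, the RNA of the inactive X chromosome of females, was detected in the hepatocyte-like cells of all 6 mice. It stood at 46.6 to 111 CP10K in the WT mice and 33.7 to 164 CP10K in the SIRT7 KO mice. By this gene alone all 6 mice looked female, though the labels do not give the sex.

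All 7 listed genes lie on the minus strand of chromosome 4 (GRCm38, GENCODE vM21), each with transcripts of up to 7 exons. From the low end of the chromosome they are Mup7 (chr4:60066469-60070475), Mup9 (chr4:60418046-60421952), Mup1 (chr4:60498012-60501960), Mup11 (chr4:60658466-60662411), Mup17 (chr4:61591929-61595871), Mup20 (chr4:62050234-62054158) and Mup3 (chr4:62083476-62087342). The annotation places 22 coding Mup genes and 26 Mup pseudogenes within 2194 kb. The likeness of the copies bears on what was counted, because reads that match several genes are dropped in the counting. Of all 90-base stretches in the last 500 bases of the coding transcripts of Mup3, 100% occur in no other gene. The share was 90.3% for Mup20, 65.2% for Mup17, 42.0% for Mup1, 27.7% for Mup11, 19.8% for Mup7 and 18.6% for Mup9. The values of Mup3 and Mup20 thus rest mostly on sequence of their own, while those of Mup1, Mup7, Mup9 and Mup11 rest on short distinguishing stretches and are uncertain as levels. An order of levels between members is for the same reason an order of counted UMIs, not of mRNA.

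The stretches before the transcription start are shown for the 3 members with most UMIs, because they show how alike the copies are around the start. They are the 250 bases before each start, from RefSeq on GRCm38.p6, written 5′ to 3′ on the strand of the gene, with the TATA box letters TATATAA in capitals. RefSeq starts Mup3 and Mup17 inside the GENCODE spans given above, so the last bases of those windows lie within the GENCODE genes.
Mup3, chr4:62087318-62087567, minus strand: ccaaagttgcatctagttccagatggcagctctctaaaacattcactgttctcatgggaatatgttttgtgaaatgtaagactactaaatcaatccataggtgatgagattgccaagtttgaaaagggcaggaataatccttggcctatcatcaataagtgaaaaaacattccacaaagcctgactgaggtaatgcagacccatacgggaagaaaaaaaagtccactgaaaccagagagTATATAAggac
Mup9, chr4:60421953-60422202, minus strand: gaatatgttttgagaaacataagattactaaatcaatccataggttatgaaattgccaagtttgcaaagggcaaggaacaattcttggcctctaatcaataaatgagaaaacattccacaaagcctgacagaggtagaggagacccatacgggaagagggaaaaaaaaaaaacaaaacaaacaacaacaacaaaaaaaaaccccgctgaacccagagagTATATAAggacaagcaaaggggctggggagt
Mup17, chr4:61595833-61596082, minus strand: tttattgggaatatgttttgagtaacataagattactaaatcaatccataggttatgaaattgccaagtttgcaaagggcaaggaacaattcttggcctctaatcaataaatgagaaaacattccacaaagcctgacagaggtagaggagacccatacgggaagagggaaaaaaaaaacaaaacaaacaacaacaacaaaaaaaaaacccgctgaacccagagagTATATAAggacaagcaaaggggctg
The TATA box letters lie 11, 31 and 25 bases before the RefSeq start of Mup3, Mup9 and Mup17. Mup9 and Mup17 were identical at 99.2% of 242 aligned bases, while Mup3 matched Mup9 at 89.1% and Mup17 at 87.6%. 5 of the 7 listed genes had an entry among the RefSeq promoters (all but Mup1 and Mup20). TATATAA, searched on both strands, was in 3 of those 5 and in 7 of the 10 Mup promoters with an entry. It was in 3.04% of 32851 promoters of the same length. The windows of Mup7 and Mup11, which lacked it, aligned with that of Mup9 over only 113 and 218 bases, at 98.2 and 99.5% identity. Whether the letters lie just outside those 2 windows was not tested. The letters TTCNNNGAA, the core of the sites that STAT5 can bind, were in 0 of the 10 Mup windows and in 7.02% of all, which says only that these letters are not in these windows.

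Mup3, Mup9 and Mup17 were the members with the highest level in hepatocyte-like cells. Mup3 stood at 9.11, 13.9 and 5.64 CP10K in WT mice 1 to 3 and at 5.42, 1.81 and 7.27 CP10K in SIRT7 KO mice 1 to 3. The genotypes overlapped, and the lowest value was that of SIRT7 KO mouse 2. Mup9 stood at 8.96, 17.0 and 5.12 CP10K in the WT mice and at 1.03, 0.756 and 2.40 CP10K in the SIRT7 KO mice, so that every SIRT7 KO mouse lay below every WT mouse. Mup17 stood at 0.127, 14.3 and 1.42 CP10K in the WT mice and at 1.27, 1.04 and 2.68 CP10K in the SIRT7 KO mice. Here the spread lay within the WT mice: WT mouse 1 had 19 Mup17 UMIs in its hepatocyte-like cells and WT mouse 2 had 1737.

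Mup20 was the member that stood higher in the SIRT7 KO mice. Its level was 0.854, 0.502 and 0.0989 CP10K in the WT mice, from 114, 54 and 2 UMIs, and 2.81, 0.898 and 1.04 CP10K in the SIRT7 KO mice, from 394, 44 and 125 UMIs. The genotypes did not overlap, with a narrow gap between WT mouse 1 and SIRT7 KO mouse 2. Mup1 stood at 0.766, 0.744 and 0.203 CP10K in the WT mice, from 102, 74 and 2 UMIs, and at 0.0368, 0.0251 and 0.0302 CP10K in the SIRT7 KO mice, from 4, 1 and 5 UMIs. The SIRT7 KO mice all lay below the WT mice. The ratio of pooled Mup1 UMIs, SIRT7 KO over WT, was 0.0504 with an exact 95% counting interval of 0.0237 to 0.0948, which leaves out the spread between mice.

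The remaining members, Mup7 and Mup11, were rare. Mup7 had 3, 21 and 2 UMIs in the WT mice and 0, 1 and 1 in the SIRT7 KO mice, or 0.0185, 0.193 and 0.144 CP10K against 0, 0.0132 and 0.00713 CP10K. Mup11 had 0, 49 and 0 UMIs in the WT mice and 1, 0 and 4 in the SIRT7 KO mice, so that WT mouse 2 alone gave its WT level. The ratio of pooled UMIs, SIRT7 KO over WT, was 0.0690 for Mup7 (exact 95% counting interval 0.00793 to 0.276) and 0.0915 for Mup11 (0.0285 to 0.228), again with counting error only. The other 8 Mup genes with a column, Mup2, Mup5, Mup10, Mup12, Mup14, Mup16, Mup18 and Mup21, stood between 0 and 0.427 CP10K in every mouse, and the genotypes overlapped for each.

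In order of the WT means, Mup9 came first with 10.4 ± 6.06 CP10K (SD, n = 3), followed by Mup3 with 9.54 ± 4.12 and Mup17 with 5.28 ± 7.83. These neighbours lay within each other's spread. Then came Mup1 and Mup20, of which the means of 0.571 and 0.485 CP10K also lay within their spread. In the SIRT7 KO mice Mup3 led with 4.83 ± 2.77 CP10K (SD, n = 3), and Mup17, Mup20 and Mup9 followed at 1.66 ± 0.892, 1.58 ± 1.07 and 1.39 ± 0.882 CP10K, with no gap beyond the spread among those 3. The 15 Mup genes summed to 19.98, 48.3 and 12.9 CP10K in the WT mice and to 10.8, 4.68 and 13.9 CP10K in the SIRT7 KO mice, which overlapped.

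**Figure D1:**
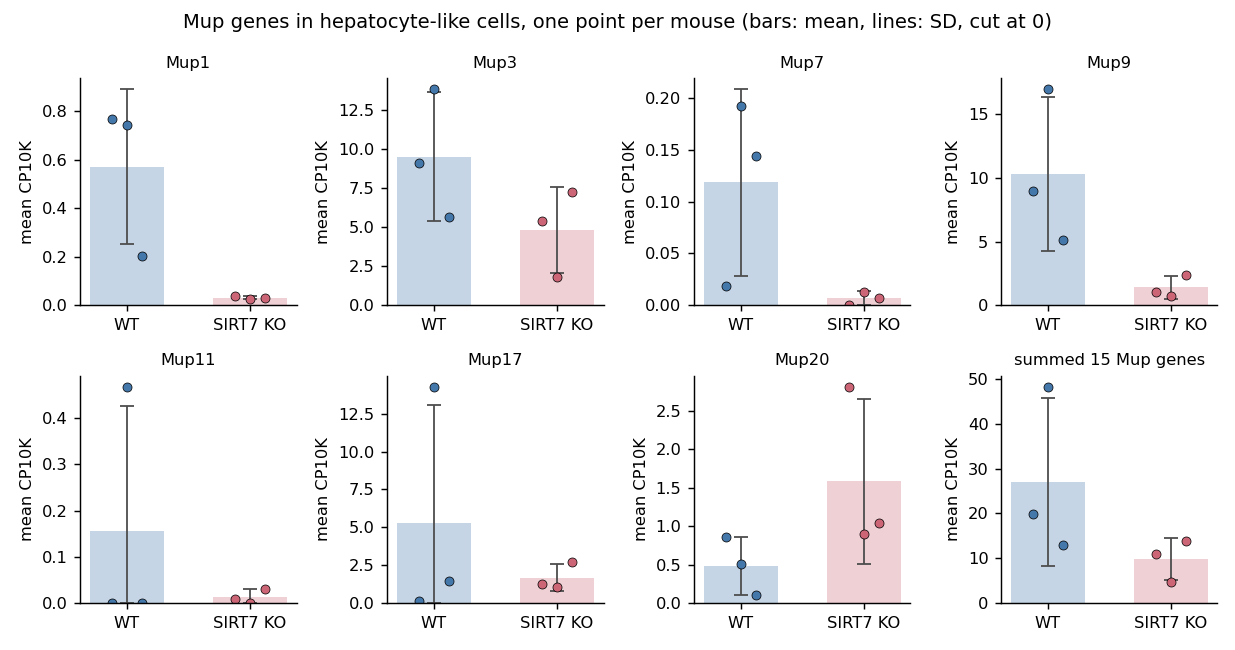
Mean CP10K of each listed Mup gene and of the 15 Mup genes summed, in hepatocyte-like cells, with 1 point per mouse, bars at the mean of the 3 mice of a genotype and lines for the SD, cut off at 0. Mup1 and Mup9 of the SIRT7 KO mice sit below all WT points, Mup20 sits above them, and Mup17 spans 0.127 to 14.3 CP10K within the WT mice.

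The make-up of the Mup pool differed between mice. Mup3 took 47.1, 28.1 and 45.5% of all Mup UMIs in hepatocyte-like cells of the WT mice and 48.5, 38.1 and 49.3% in the SIRT7 KO mice, a share that overlapped between genotypes. Mup9 took 44.1, 35.2 and 37.5% in the WT mice but 9.97, 17.0 and 18.5% in the SIRT7 KO mice. Mup20 took 3.88, 0.945 and 1% in the WT mice and 27.1, 19.7 and 7.57% in the SIRT7 KO mice. For both genes the genotypes did not overlap, in opposite directions. Mup17 took 0.647% in WT mouse 1, 30.4% in WT mouse 2 and 11.5% in WT mouse 3, and 11.8, 22.0 and 20.8% in the SIRT7 KO mice. These shares rest on 2937, 5716 and 200 Mup UMIs in the WT mice and 1454, 223 and 1652 in the SIRT7 KO mice.

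**Figure D2:**
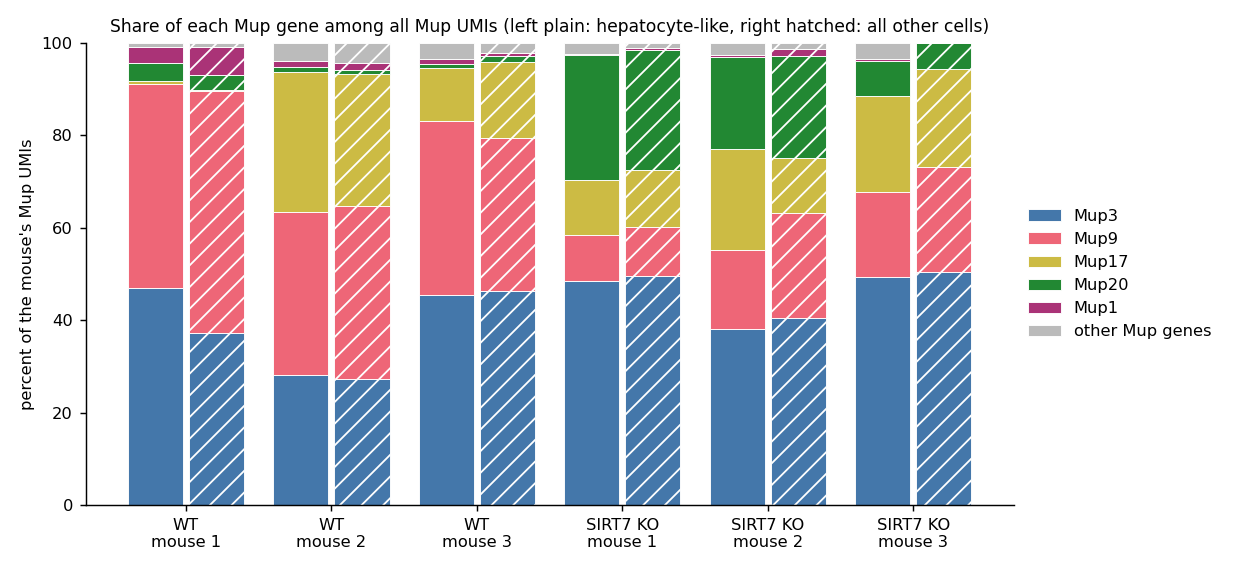
Share of all Mup UMIs of a mouse taken by Mup3, Mup9, Mup17, Mup20, Mup1 and the other Mup genes, in percent, stacked to 100%, for hepatocyte-like cells (left, plain) and all other cells (right, hatched). The 2 bars of a mouse resemble each other, Mup20 takes 27.1% in hepatocyte-like cells of SIRT7 KO mouse 1, and Mup17 takes 0.647% in those of WT mouse 1.

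Mup UMIs were also found in cells that are not hepatocytes. Summed over the 15 genes, all other cells held 5.55, 8.98 and 3.17 CP10K in the WT mice and 2.49, 0.2999 and 3.39 CP10K in the SIRT7 KO mice. As a percent of the level in hepatocyte-like cells of the same mouse this was 6.41 at the lowest, 23.7 at the median and 27.8 at the highest, and it lay below the hepatocyte-like level in 6 of 6 mice. Alb, which encodes serum albumin and marks hepatocytes, stood at 13.8 to 41.9% with a median of 28.4%, and Apoa1, the main protein of high-density lipoprotein, at 9.91 to 18.6%. The range of the summed Mup genes overlapped those of Alb and Apoa1, and SIRT7 KO mouse 2 was the lowest of the 6 mice for the summed Mup genes.

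By class, the median percent of the hepatocyte-like level of the summed Mup genes was 27.8 in T or NK cell-like cells (6 mice), 22.0 in endothelial cell-like cells (5 mice), 15.2 in macrophage-like cells (6 mice), 10.2 in plasma cell-like cells (4 mice) and 19.9 in a cluster left unnamed, led by Klk1, Rnase6 and Gpr141 (6 mice). It was 42.1 in B cell-like cells (2 mice) and 22.4 in neutrophil-like cells (3 mice). The ranges over mice of these classes overlapped, apart from the B cell-like cells, whose 37.2 to 47.1% lay above the highest values of the macrophage-like and plasma cell-like cells and of the unnamed cluster. Stellate cell-like cells were too few for a level in any mouse. Of Mup3, Mup9, Mup17 and Mup20, only Mup20 reached the hepatocyte-like level in a class, at 112% in endothelial cell-like cells of 1 of 5 mice. That mouse, WT mouse 3, had 1 Mup20 UMI in those cells and 2 in its hepatocyte-like cells. Mup1 in B cell-like and plasma cell-like cells and Mup11 in T or NK cell-like and plasma cell-like cells also reached that level in 1 or 2 mice. These came from 2 to 5 UMIs over all mice.

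The proportions between Mup genes in the other cells resembled those in hepatocyte-like cells of the same mouse. Mup9 made up 52.3, 37.4 and 33.3% of the Mup UMIs in all other cells of the WT mice and 10.6, 22.7 and 22.7% in the SIRT7 KO mice. Mup20 made up 3.44, 0.941 and 1.31% against 25.9, 22.0 and 5.76%. Over the 24 pairs of a gene (Mup3, Mup9, Mup17 or Mup20) and a mouse, the exact 95% binomial intervals of the share in hepatocyte-like cells and in other cells overlapped in 22. The other 2 were Mup3 and Mup9 in WT mouse 1, where Mup3 was lower in other cells (37.2%) and Mup9 higher. Intervals cover counting error only, and with few UMIs they overlap easily. Mup17 in SIRT7 KO mouse 2, for example, counted as overlapping at 22.0% in hepatocyte-like cells against 12.1% in other cells.

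Shares of cells with a UMI were also above 0 outside the hepatocyte-like class. Among hepatocyte-like cells, 69.8, 80.8 and 46.0% held a Mup3 UMI in the WT mice and 43.9, 22.8 and 83.3% in the SIRT7 KO mice. Among macrophage-like cells, which should lack the gene (median 2267 UMIs a cell, against 1511 in hepatocyte-like cells), the shares were 38.9, 28.3 and 20.7% and 14.0, 3.32 and 51.2%. The highest macrophage-like share was that of the deeply sequenced SIRT7 KO mouse 3, where these cells had a median of 6493.5 UMIs. In all 6 mice the macrophage-like share stayed under the hepatocyte-like share. In macrophage-like cells thinned to 1000 UMIs, the Mup3 shares were 6.12, 9.76 and 10.7% in the WT mice and 7.04, 0.654 and 11.25% in the SIRT7 KO mice. With hepatocyte-like cells thinned to 1000 UMIs, which left out shallower cells and kept 701, 405 and 67 cells in the WT mice and 652, 198 and 318 in the SIRT7 KO mice, the Mup3 shares became 53.8, 71.6 and 37.3% in the WT mice and 34.7, 19.7 and 44.0% in the SIRT7 KO mice. For Mup9 the thinned shares were 57.6, 74.1 and 37.3% against 9.66, 6.57 and 20.4%, so that the genotypes did not overlap at equal depth. For Mup20 they were 8.13, 4.44 and 1.49% against 17.8, 6.57 and 10.1%, where SIRT7 KO mouse 2 fell among the WT mice.

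The spread of Mup UMIs among the thinned cells of one mouse was measured by the Fano factor. The Fano factor, the variance over the mean, which is 1 for counting error alone, was 1.02 to 1.51 for Mup3, 0.939 to 1.54 for Mup9 and 0.939 to 1.85 for Mup17. It was 1.56 to 2.93 for Apoa1 and 1.73 to 12.1 for Alb, but these genes have higher means, and the Fano factor can rise with the mean, so the genes are not compared by it. Mup20 had 0.953 to 1.11 in 5 mice and 1.70 in SIRT7 KO mouse 1, where the highest cell held 8 UMIs and the 65 cells with most, of 652, held 67.5% of the Mup20 UMIs.

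The comparison of genotypes asks how the members stood in SIRT7 KO hepatocytes, in a study that followed the growth hormone axis in these livers. Differences are in log2(mean CP10K + 0.05), SIRT7 KO minus WT, with the limma test over 9860 genes, whose median difference was 0.16. Of all genes tested, 0.0913% passed in the lower direction at an adjusted p of 0.05 and 0.0203% in the higher, or 0.112% in either direction (11 genes). One member, Mup1, passed, with a difference of -2.76 (SE 0.49, 95% interval -3.82 to -1.71, adjusted p 0.0486, lower in 3 of 3 SIRT7 KO mice). That call is near the threshold and was lost without WT mouse 1 (adjusted p 0.225), WT mouse 2 (0.14), SIRT7 KO mouse 1 (0.12) or SIRT7 KO mouse 3 (0.096), and under 11 of 15 other ways of processing the values. Mup9 differed by -2.85 (SE 0.52, 95% interval -3.97 to -1.73, adjusted p 0.0612) and did not pass, but it passed without SIRT7 KO mouse 2 (adjusted p 0.040) and without SIRT7 KO mouse 3 (0.024). The pair thus had like differences on either side of the threshold.

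Mup20 differed by 1.77 (SE 0.59, 95% interval 0.50 to 3.04, adjusted p 0.558) and Mup3 by -1.09 (SE 0.54, adjusted p 0.688). Mup17 gave 0.02 with a 95% interval of -4.04 to 4.09, and its sign turned with the scaling. Mup7 and Mup11 gave -1.39 and -0.81, with adjusted p-values of 0.609 and 0.885. On values, SIRT7 KO mice all lay below WT mice for 3 of the 7 members (Mup1, Mup7 and Mup9), as did 3.16% of all genes tested, and all above for 1 (Mup20), as did 10% of all genes. An unadjusted p under 0.05 was reached by 4 of the 7 members and by 737 of the 9860 genes. Since the members were listed with these results known, nothing is read from their counts against those of all genes. These values are means over the single cells of a mouse. Whether fewer hepatocytes held a high level or each hepatocyte held less RNA was not tested.

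**Figure D3:**
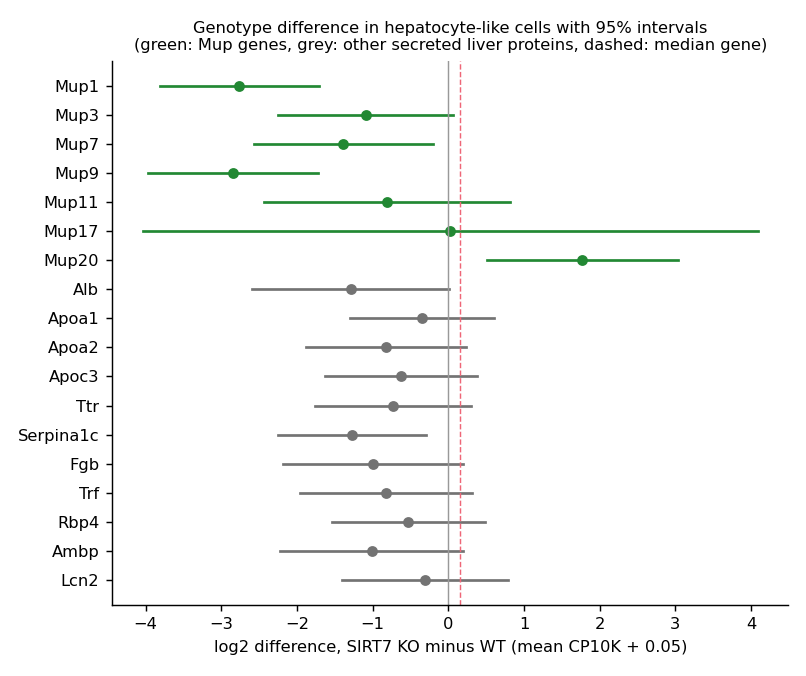
Difference between genotypes in hepatocyte-like cells in log2(mean CP10K + 0.05), SIRT7 KO minus WT, with 95% intervals from the limma fit, for the 7 listed Mup genes (green) and 11 other secreted liver proteins (grey), with a dashed line at the median of all genes, 0.16. Mup1 at -2.76 and Mup9 at -2.85 lie lowest, Mup20 at 1.77 lies highest, and the interval of Mup17 spans -4.04 to 4.09.

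Other measures of these cells also varied between mice, and of those given here only the summed dendritic cell markers did not overlap between genotypes. Alb itself stood at 126, 186 and 52.5 CP10K in the WT mice and 46.3, 21.6 and 83.8 CP10K in the SIRT7 KO mice (difference -1.29, adjusted p 0.666). The share of hepatocyte-like cells in the first of the 2 clusters that make up the class (led by A2ml1 and Fabp1) was 53.0 to 79.5% in the WT mice and 19.1 to 79.3% in the SIRT7 KO mice. The 8 dendritic cell markers summed to 1.70 to 2.63 CP10K in the WT mice and 2.77 to 6.06 CP10K in the SIRT7 KO mice. Of the 8, none was at 0 and 2 were higher in every SIRT7 KO mouse than in any WT mouse, as were 10% of all genes tested. The 4 red blood cell markers reached 62.5 CP10K in WT mouse 1 and 0.0446 to 3.52 elsewhere, and the 4 neutrophil markers reached 7.15 CP10K in SIRT7 KO mouse 1. The summed levels of the macrophage, monocyte, T or NK cell, B cell, plasma cell, endothelial cell, stellate cell, basophil and cholangiocyte markers overlapped between genotypes. The part of these measures in the Mup values was not tested.

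Set against Alb, the members differed in direction. Mup3 came to 73.7, 63.4 and 85.5 UMIs per 1000 Alb UMIs in the WT mice and 106, 89.0 and 82.5 in the SIRT7 KO mice, so its lower mean in CP10K turned into a higher mean on this scale, with overlap on both. Mup9 came to 69.0, 79.3 and 70.5 against 21.9, 39.8 and 30.9, and Mup1 to 5.44, 2.91 and 1.88 against 0.603, 1.05 and 0.507. Both stayed below all WT mice, as did 0.142% of genes on this scale. For Mup1 the gap was that between 2 UMIs in WT mouse 3 and 1 UMI in SIRT7 KO mouse 2. Mup20 came to 6.08, 2.13 and 1.88 against 59.4, 46.1 and 12.7, and thus stayed above, as did 41.5% of genes. Mup17 came to 1.01, 68.4 and 21.6 against 25.9, 51.3 and 34.8, with overlap. The summed Mup genes gave 157, 225 and 188 UMIs per 1000 Alb UMIs in the WT mice and 219, 234 and 168 in the SIRT7 KO mice, again with overlap. In all other cells the summed Mup genes came to 148, 338 and 227 UMIs per 1000 Alb UMIs in the WT mice and to 163, 105 and 94.7 in the SIRT7 KO mice. The ratio of Mup to Alb UMIs was thus lower in other cells than in hepatocyte-like cells in 3 of 3 SIRT7 KO mice and higher in 2 of 3 WT mice.

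**Figure D4:**
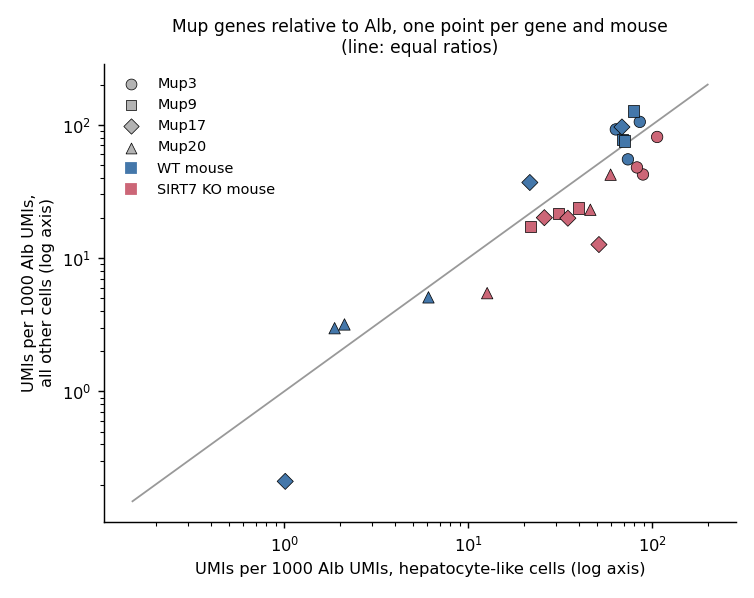
UMIs per 1000 Alb UMIs of Mup3, Mup9, Mup17 and Mup20 in hepatocyte-like cells (horizontal) and in all other cells of the same mouse (vertical), both on log axes, with 1 point per gene and mouse and a line at equal ratios. SIRT7 KO points lie below the line, Mup20 lies at 1.88 to 6.08 in WT and 12.7 to 59.4 in SIRT7 KO hepatocyte-like cells, and the lone low point is Mup17 of WT mouse 1.

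Mup9 had the same direction in cells of other classes. In macrophage-like cells Mup9 stood at 2.39, 1.58 and 0.614 CP10K in the WT mice and 0.166, 0.0348 and 0.3799 CP10K in the SIRT7 KO mice, a difference of -2.80 with an adjusted p of 0.125. The difference was -2.48 in T or NK cell-like cells, -3.04 in endothelial cell-like cells, -2.95 in plasma cell-like cells and -2.71 in the unnamed cluster. None of these passed (adjusted p 0.157 to 0.793), and these cells come from the same libraries as the hepatocyte-like cells, so they are not further replicates. Whether the Mup UMIs of other cells were free RNA or came from doublets was not tested. No member passed in any of the 5 classes, where limma called 0.14% of all genes in T or NK cell-like, 0.197% in endothelial cell-like, 0.201% in macrophage-like and 0.0782% in plasma cell-like cells and 0.0308% in the unnamed cluster. Of the 5 members tested in each, an unadjusted p under 0.05 was reached by 2, 0, 2, 4 and 2 in the order T or NK cell-like, endothelial cell-like, macrophage-like, plasma cell-like and unnamed. Of all genes it was reached by 731 of 10003, 776 of 10645, 1055 of 9944, 501 of 7670 and 586 of 9740.

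Across the liver lobule, from the portal vein to the central vein, Mup9 and Mup17 stood higher in the more pericentral cells of every mouse. No member passed the test. Hepatocyte-like cells of each mouse were cut into periportal, middle and pericentral zones of equal size by the share of pericentral genes among their UMIs from 22 zonal genes, none of them a Mup gene. The cut was made within each mouse, so a zone is not the same position in all mice. The median share was 38.9% in the pericentral zone of WT mouse 1 and 33.3% in the periportal zone of WT mouse 2. As a check, genes not used for the cut gave differences, pericentral minus periportal zone in log2(mean CP10K + 0.05), of 0.88 for Cyp2c29 and 1.98 for Gstm3, both pericentral and higher in 6 of 6 mice, and of -1.03 for the periportal Asl, lower in 6 of 6. Cyp3a11, pericentral in the textbook pattern, was higher in the 3 WT mice and lower in the 3 SIRT7 KO mice, and the periportal Cps1 was lower in the 3 SIRT7 KO mice and higher in the 3 WT mice. The limma test of the zone difference between genotypes gave -1.18 (SE 0.79) for Cyp3a11 and -1.10 (SE 0.53) for Cps1, each with an adjusted p of 0.702. The check by these 2 genes thus failed in 1 genotype each, which limits the zone by genotype values below.

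Mup9 stood at 8.06, 14.2 and 2.03 CP10K in the periportal zones of the WT mice and at 9.58, 18.7 and 5.62 CP10K in their pericentral zones. In the SIRT7 KO mice it stood at 0.461, 0.612 and 1.98 CP10K against 1.40, 0.675 and 2.91 CP10K. The pericentral zone was thus higher in 6 of 6 mice, with a mean difference of 0.71 (SE 0.43, 95% interval -0.25 to 1.67, limma adjusted p 0.931). In SIRT7 KO mouse 2 that order rested on 8 periportal and 9 pericentral UMIs. Mup17 was likewise higher in 6 of 6 mice, with a mean difference of 0.85 (SE 0.44, 95% interval -0.13 to 1.83). In the WT mice it stood at 0.0274, 9.95 and 0.987 CP10K periportal and 0.152, 16.8 and 1.57 CP10K pericentral. The WT mouse 1 values came from 2 and 9 UMIs. Of all genes, 1.5% were higher in the pericentral zone of all 6 mice, and 0% passed the adjusted test in either direction (0 of 9783 by limma, with 132 at an unadjusted p under 0.05).

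Mup3 showed no such order, at -0.04 (SE 0.26, 95% interval -0.62 to 0.54). Mup20 was higher in the pericentral zone of all 3 SIRT7 KO mice, by 0.96, 0.58 and 0.72, and gave -0.55, -0.75 and 1.83 in the WT mice, where WT mouse 3 had 0 CP10K in the periportal zone. Mup1, Mup7 and Mup11 gave -0.35, -0.45 and 0.36 from few UMIs. The zone difference was not shown to depend on genotype: the test of that dependence gave -0.16 for Mup17 to 1.25 for Mup1 (SIRT7 KO minus WT), with adjusted p-values of 0.720 to 0.994 and 0% of all genes passing (0 of 9783 by limma, 513 at an unadjusted p under 0.05, no member among them).

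**Figure D5:**
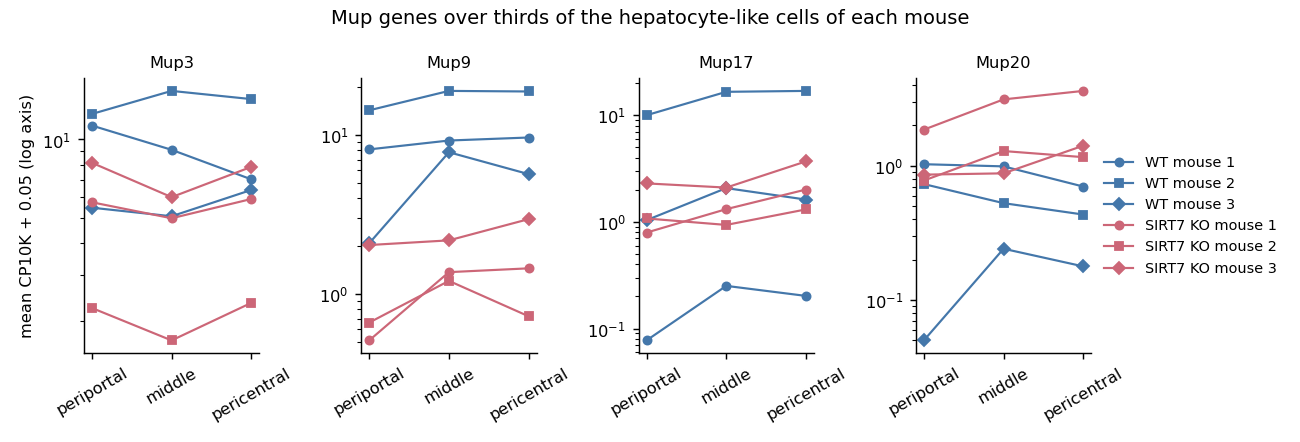
Mean CP10K + 0.05 of Mup3, Mup9, Mup17 and Mup20 in the periportal, middle and pericentral zones of hepatocyte-like cells, on a log axis, with 1 line per mouse. The lines of Mup9 and Mup17 end higher than they start in all 6 mice, by 0.13 to 1.505 and 0.28 to 1.39 in log2.

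Within the class, the cluster led by A2ml1 and Fabp1 (1743 cells) had higher Mup9 than the cluster led by Slc22a30 and Mlxipl (1220 cells) in every mouse. The same held for Mup3, the summed Mup genes and Alb, so this order was not particular to Mup9. For Mup9 the WT mice had 10.1, 18.8 and 6.05 CP10K against 7.21, 9.93 and 4.07. The SIRT7 KO mice had 1.25, 0.867 and 3.67 CP10K against 0.746, 0.329 and 2.10. The 0.329 CP10K of SIRT7 KO mouse 2 came from 3 UMIs. SIRT7 KO mice lay below WT mice for Mup9 in either cluster. Mup20 in the first cluster was 1.14, 0.556 and 0 CP10K in the WT mice and 3.63, 0.951 and 1.76 in the SIRT7 KO mice, so that the genotypes overlapped there. In the second it was 0.431, 0.293 and 0.210 against 1.80, 0.691 and 0.864 CP10K, without overlap. The Mup20 values of the second cluster came from 35, 8 and 2 UMIs in the WT mice and 95, 5 and 96 in the SIRT7 KO mice.

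Of 21 genes of the growth hormone pathway, 19 were tested and none passed, 9 below 0 and 10 above, with a median of 0.01 beside 0.16 for all genes. Igf1, the hormone that growth hormone induces in liver, stood at 8.99, 8.33 and 6.65 CP10K in the WT mice and 7.34, 4.405 and 5.11 CP10K in the SIRT7 KO mice, which overlapped. Igfals, which encodes the acid-labile subunit that keeps IGF-1 in the circulation, was the one gene of the list without overlap. It stood at 0.717, 0.965 and 0.583 against 0.295, 0.157 and 0.396 CP10K (difference -1.32, limma adjusted p 0.422). Of all genes tested, 3.16% likewise lay lower in every SIRT7 KO mouse than in any WT mouse. The growth hormone receptor gene Ghr, the STAT5 genes Stat5a and Stat5b and the feedback inhibitors Socs2 and Cish overlapped between genotypes.

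Because most Mup genes are sex-biased, lists of other sex-biased liver genes were set beside them. Of 18 male-biased genes, 12 had a column, 11 were tested and none passed, with a median of -0.54, 8 below 0 and 3 above. Cyp2u1 and C8b lay lower in every SIRT7 KO mouse than in any WT mouse, as did 3.16% of all genes tested. They rested on 0 to 15 and 2 to 31 UMIs a mouse. Apart from Nudt7 and Gstp1, the highest value of a tested male-biased gene was 0.504 CP10K, for Cyp7b1 in WT mouse 2. Most of this list thus lay near the pseudocount of 0.05, and its differences are uncertain. Of 20 female-biased genes, 18 had a column and 16 were tested, with a median of -1.15, 14 below 0 and 2 above. Of these, 1 passed, in the lower direction, as did 0.0913% of all genes tested. Among those that did not pass, Sult2a1, Cyp3a44 and Cyp2c69 lay lower in every SIRT7 KO mouse than in any WT mouse. All 11 other secreted liver proteins gave a difference below 0, with a median of -0.82, and none passed. Apoa2 and Serpina1c were those without overlap, both lower in the SIRT7 KO mice. The same 3.16% of all genes tested stands beside the female-biased and secreted genes without overlap. The members' own median was -1.09, 5 below 0 and 2 above, and the median of all genes tested was 0.16.

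Over the 18 means of a mouse and a zone, the genes most like the summed Mup level among 1668 genes were Apoh (Pearson r = 0.97), Pon1 (0.95), C3 (0.94), Alb (0.94) and Hp (0.92), all of which encode plasma proteins made by hepatocytes. For Mup20 alone they included Bet1 (0.76), Cbr1 (0.75), Mocs2 (0.74) and Lgals1 (0.73), none of them in the first group. The 3 zones of a mouse share a library, so these are descriptions over 6 mice.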

How the data were processed

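Droplet libraries of liver cells from 6 mice were aligned to mm10 with Cell Ranger 6.0.0, per the submitters' processing notes. The authors kept cells with at least 500 genes and at most 5% mitochondrial UMIs, and the deposited values are the natural log of CP10K + 1 for each cell. The read length and the annotation version are not given in the sources used here. UMIs were worked back from the deposited values, and all 12961041 came out whole within 0.02. Cells were clustered with scanpy 1.11.5 on 1000 genes without Mup genes (50 components, Leiden resolution 0.35), and clusters were named from fixed marker lists. Scrublet marked 46 of 11610 cells (0.396%), which is too few to count as a working doublet call, so doublets were not removed. Per-mouse mean CP10K (20 or more cells) was tested as log2(mean + 0.05) with limma 3.58.1 (trend and robust), two-sided, Benjamini-Hochberg over all genes averaging 0.05 CP10K or more. The fit was also run on simulated data with known changes, with a spread between mice that was set rather than taken from these mice. For the genotype fit, likeness of recovered and true folds was required only of genes with higher levels. Recovery of the rare members, or at the spread of these mice, was thus not shown. Zones needed 5 or more zonal UMIs a cell. The named genes were the listed members, the other Mup columns, the pathway, sex-biased and secreted lists, Sirt7, sex-chromosome genes and the 5 genes most like the summed Mup level and Mup20. A few genes that these rules name are not reported here. Members and lists were chosen with earlier results of these data known. Alternatives changed the pseudocount, filter, scaling, cell choice and mice. The total UMIs of hepatocyte-like cells were 155547 to 1539978 a mouse. Intervals of shares and of pooled UMI ratios cover counting error only, while those of the limma differences measure the spread between mice.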

Additional observations from a re-analysis of the deposited data

How the results depend on the processing

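The number of listed genes that passed between genotypes in hepatocyte-like cells was 1 as reported. It was 0 with a pseudocount of 0.5 or 0.01, with no filter, a filter at 0.5 CP10K (where Mup1 has no value), means of the ln values, voom, median centring, a marker gate, thinned cells, and without Scrublet doublets or cells over 1% hemoglobin, and it was 2 without cells with 3 or more UMIs of other classes' markers. Leaving out each mouse gave 0 to 2. Over the alternatives, the adjusted p of Mup1 ran from 0.00872 to 0.960 (difference -3.89 to -0.23) and that of Mup9 from 0.0177 to 0.960 (-3.31 to -1.91). Mup20 stayed above 0 (0.39 to 2.51) and Mup3 below 0 (-1.49 to -0.51). All genes that passed numbered 11 as reported, 3 with a pseudocount of 0.5, with no filter or with voom, 4 with the filter at 0.5, 0 with means of ln values, 17 with the gate, 7 thinned, 41 and 28 in cluster 3 and cluster 5 alone (chosen after seeing the data), and 3 to 23 without each mouse.

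The difference of Mup17 reversed to -0.35 (pseudocount 0.5), -0.53 (ln means), -0.15 (centring), -0.16 (thinned) and -0.42 (cluster 5), and ran from -1.54 to 1.63 without each mouse. Between zones, leaving out each mouse gave -0.73 to 0.36 for Mup1 and -0.12 to 0.11 for Mup3. Mup1 reversed to 0.36 without WT mouse 3, Mup3 to 0.022 and Mup7 to 0.0083 with 2 zones in place of 3, and Mup3 to 0.11 without WT mouse 1. Members that passed in zone or zone by genotype numbered 0 throughout. In other classes they numbered 0 to 1 in T or NK cell-like cells and the unnamed cluster without each mouse (1 without SIRT7 KO mouse 3), 0 to 2 in endothelial cell-like cells (2 without SIRT7 KO mouse 1), and 0 to 3 in plasma cell-like cells (3 without WT mouse 3, and 3 with no filter). Leaving out a SIRT7 KO mouse left 1 such mouse with endothelial cell-like cells, and leaving out any mouse left 1 mouse of its genotype with plasma cell-like cells; that lone mouse is assumed to vary like the mice of the other genotype. Causes were not tested.

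The deviations of same-numbered mice from their genotype mean correlated at r = -0.03, 0.14 and 0.02. The 0.14, for the mice numbered 2, was the highest of all pairs of a WT and a SIRT7 KO mouse. So few mice cannot show or exclude a shared litter or day, and the labels give no pairing, so none was assumed. With the replicate block 1 listed gene and 11 genes in all passed. In plasma cell-like cells the block leaves no residual degrees of freedom and could not be fitted.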
